A study of Homo sapiens with 2 samples.

Results

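The genes described here encode 9 factors of nonsense-mediated mRNA decay, namely UPF1, UPF2, UPF3A, UPF3B, SMG1, SMG5, SMG6, SMG8 and SMG9. They were chosen by name, with earlier results of these data known. All 9 were found among the 19927 gene rows of the count table. All 9 were also among the 12540 genes kept for reaching 1 CPM (reads of the gene per 1000000 counted reads) in at least 1 library. For this filter the library totals were scaled as for the ratios. Polyadenylated RNA was sequenced from Huh7, an established human hepatocellular carcinoma cell line, in 1 library from cells carrying a short hairpin RNA against PPIL1 (shPPIL1, titled shPPIL1#1, genotype PPIL1 knockdown) and 1 library from cells carrying a control hairpin (shControl, genotype labelled WT). The question of the series is what loss of PPIL1, a cyclophilin found in the active spliceosome, does to expression in these cells. The model rests on 1 hairpin and 1 culture per group.

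Nonsense-mediated decay destroys mRNAs on which a ribosome stops too early, as happens after a splicing error that shifts the reading frame. A stop codon well upstream of an exon junction, a translated upstream open reading frame or a long 3' UTR can each mark an mRNA for this pathway. The UPF proteins recognise the halted ribosome, the SMG1 kinase complex phosphorylates UPF1, and SMG5 and SMG6 help to bring about the destruction of the mRNA. Several of these factors are encoded by mRNAs that are themselves decay targets, UPF1, UPF2, UPF3B, SMG1, SMG5 and SMG6 among them, so their mRNAs are known to accumulate when the pathway is impaired.

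The shPPIL1 library held 41165401 counted reads and the shControl library 41015345. PPIL1 had 104 reads in shPPIL1 cells and 1505 in shControl cells, which is 6.79% of the control level after scaling and has the direction of the labels. The 10 hepatocyte and hepatoma markers, albumin and alpha-fetoprotein (ALB, AFP) included, stood between 83.9 and 4612 FPKM in shPPIL1 cells and between 81.3 and 4564 FPKM in shControl cells. FPKM is the same measure divided by gene length in kilobases. Of 12 leukocyte, endothelial and stromal markers, none exceeded 2.05 FPKM in shPPIL1 cells or 1.82 FPKM in shControl cells, and KDR and COL1A2 were at 0 reads in both libraries. With 1 library per group, no difference between the conditions could be tested, and "higher" and "lower" describe the shPPIL1 library against the shControl library. Each ratio is given with a 95% interval that covers counting error only, and not the spread between cultures.

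SMG5 was the member that differed most between the libraries, and the others lay within 1.2-fold. The SMG5 mRNA was 1.28-fold lower in shPPIL1 cells, UPF1 was 1.12-fold lower and UPF2 was 1.08-fold lower, each by more than counting error. The kinase gene SMG1, its partner genes SMG8 and SMG9, the endonuclease gene SMG6 and the paralogs UPF3A and UPF3B all had intervals that included equal expression. The call used here asked for a difference of 1.2-fold or more together with an interval that excludes 1. By this rule 1 of 9 members was lower, beside 9.52% of all kept genes, and 0 of 9 were higher, beside 8.32% of all kept genes. The share of members called was thus near that of all genes. By an interval excluding 1 at any fold, 3 of 9 members were lower, beside 26.4% of kept genes, and 0 of 9 were higher, beside 24.6%. At 1.1-fold, SMG5 and UPF1 were lower, beside 19.0% of kept genes, and 0 members were higher, beside 17.5%. No member reached 1.5-fold, which 2.22% of kept genes passed downward and 2.02% upward, or 2-fold, which 0.518% passed downward and 0.526% upward. The median log2 ratio of the 9 members was -0.02, and that of all 12540 kept genes was -0.002.

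**Figure D1:**
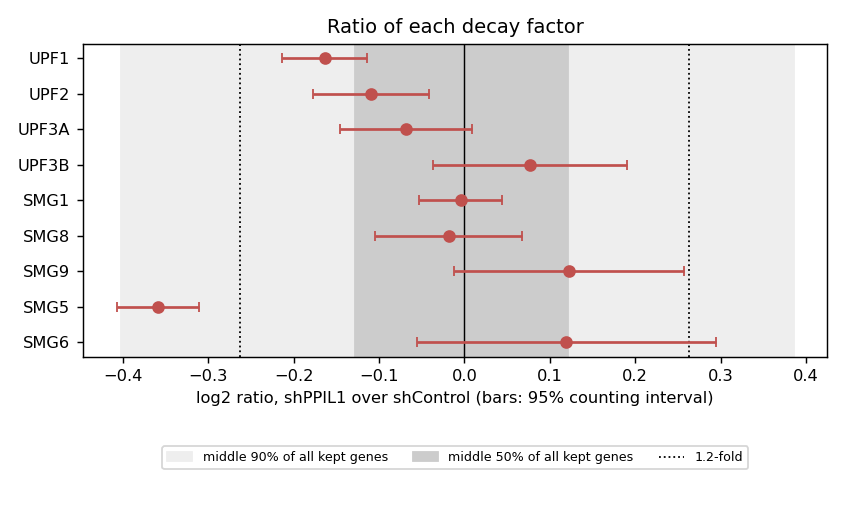
Log2 ratio of shPPIL1 over shControl for each decay factor, with its 95% counting interval, 1 library per group. Grey bands hold the middle 50% and the middle 90% of all kept genes and dotted lines mark 1.2-fold. SMG5, at -0.36, is the 1 member beyond 1.2-fold. UPF1, at -0.16, and SMG9, at 0.12, lie just outside the band of the middle 50%, and the intervals of SMG9 and SMG6 include 0.

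Levels between members are compared here in FPKM, which accounts for gene length. The order ran from UPF3A and SMG5 at the top to SMG6 at the bottom. In shPPIL1 cells UPF3A stood at 34.6 FPKM, SMG5 at 33.3, UPF1 at 28.9, UPF2 at 21.2, SMG8 at 16.6, UPF3B at 13.4, SMG1 at 10.3, SMG9 at 7.87 and SMG6 at 3.28 FPKM. In shControl cells SMG5 stood at 42.1 FPKM, UPF3A at 35.8, UPF1 at 31.9, UPF2 at 22.6, SMG8 at 16.6, UPF3B at 12.6, SMG1 at 10.2, SMG9 at 7.12 and SMG6 at 2.98 FPKM. By these values the orders differ only at the top, where SMG5 and UPF3A change places. The order rests on the gene lengths behind the deposited FPKM. Per kilobase of the annotated principal transcript, SMG5 came first, UPF1 next and UPF3A after it in both libraries, and the level of SMG9 was 1.87-fold below its deposited FPKM. Ratios between the libraries do not depend on length. In shPPIL1 cells the counting intervals of UPF3A, from 33.3 FPKM upward, and SMG5, up to 34.1 FPKM, overlapped, while every other pair of neighbours in both libraries lay apart. The median kept gene stood at 9.40 FPKM in shPPIL1 cells and 9.28 FPKM in shControl cells, so SMG9 and SMG6 were the members below it.

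**Figure D2:**
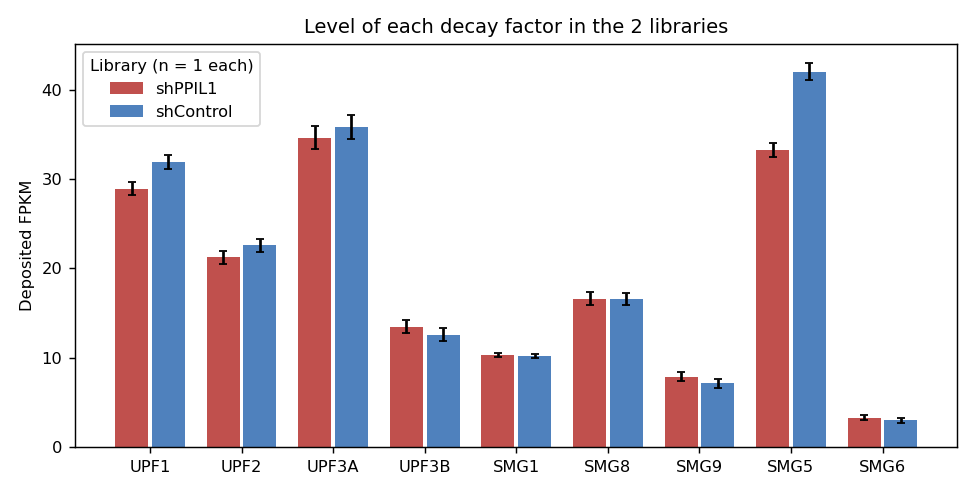
Deposited FPKM of each decay factor in the shPPIL1 library and the shControl library, with 95% counting intervals, 1 library per group. SMG5 shows the widest gap, with 33.3 FPKM in shPPIL1 and 42.1 FPKM in shControl. SMG8 stands at 16.6 FPKM in both, and SMG6 has the lowest level in both.

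The core UPF proteins include the 2 members besides SMG5 that were lower by more than counting error. UPF1, the ATP-dependent RNA helicase at the centre of the pathway, had 6286 reads in shPPIL1 cells and 6917 in shControl cells. Its ratio was 0.893 (0.863 to 0.924), and 20.2% of kept genes had a lower ratio. UPF2, the adaptor that joins UPF1 to UPF3 and the exon junction complex, had 3408 reads in shPPIL1 cells and 3611 in shControl cells, a ratio of 0.927 (0.885 to 0.972). The ratio of UPF1 to UPF2 reads differed between the libraries by a factor of 0.963 (0.908 to 1.02), an interval that includes 1. UPF1 lies on chromosome 19 from 18831938 to 18868236 and UPF2 on chromosome 10 from 11920022 to 12043170 (GRCh38, GENCODE release 29, as for the positions that follow).

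The paralogs UPF3A and UPF3B connect UPF2 with the exon junction complex that splicing leaves on mRNA. UPF3B is the main form in most human cells, and UPF3A protein is known to be stabilised when UPF3B is lost. In both libraries here UPF3A mRNA had the higher FPKM of the pair, and protein was not measured. UPF3A had 2669 reads in shPPIL1 cells and 2750 in shControl cells, a ratio of 0.954 (0.904 to 1.01). UPF3B had 1315 reads in shPPIL1 cells and 1225 in shControl cells, a ratio of 1.05 (0.975 to 1.14). Neither differed by more than counting error on its own. The UPF3A to UPF3B ratio of FPKM values was 2.58 in shPPIL1 cells and 2.85 in shControl cells. From the read counts, the change in this ratio was 0.904 (0.822 to 0.995), an interval that just excludes 1. It was 1 of 6 such pairs compared. The change in a pair ratio, taken from read counts, depends neither on gene length nor on library scaling. The FPKM ratios themselves do rest on the gene lengths behind the deposited FPKM. Summed over both paralogs, 3984 reads in shPPIL1 cells and 3975 in shControl cells gave a ratio of 0.985 (0.942 to 1.03).

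Reads of the paralogs can be told apart, since the coding sequences were identical at 68.2% of 1308 aligned bases and shared no exact run longer than 16 bases. The stretches around that run are shown with 20 bases on each side, with capitals at the bases that differ between the paralogs.
UPF3A coding bases 497 to 552: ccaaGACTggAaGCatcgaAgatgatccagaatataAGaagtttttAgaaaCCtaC
UPF3B coding bases 446 to 501: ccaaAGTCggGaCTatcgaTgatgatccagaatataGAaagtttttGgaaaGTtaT
UPF3A has closer copies elsewhere. Of its 100-base windows, 25.3% were identical to sequence in the processed pseudogenes UPF3AP1 or UPF3AP2, both on chromosome 17. UPF3A itself lies on chromosome 13 from 114281584 to 114305817, and UPF3B, on chromosome X from 119805311 to 119852998, had 0 of 228 windows in common with another gene. The following UPF3A window occurs unchanged in both pseudogenes, so a read from it has 3 possible sources.
UPF3A coding bases 275 to 374: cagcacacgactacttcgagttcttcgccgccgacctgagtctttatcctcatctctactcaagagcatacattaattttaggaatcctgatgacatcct
How reads with several matches were counted is not given in the sources used here, so the UPF3A values, the pair ratio included, are uncertain to that extent.

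In the SMG1 complex, the mRNAs of SMG1 and SMG8 were at nearly the same level in both libraries. SMG9 had a ratio of 1.09, with an interval that includes 1. SMG1, the kinase of the PI3K-related family that phosphorylates UPF1, had 6871 reads in shPPIL1 cells and 6772 in shControl cells, a ratio of 0.997 (0.964 to 1.03). SMG8, a regulatory subunit that restrains the kinase, had 2203 reads in shPPIL1 cells and 2192 in shControl cells, a ratio of 0.987 (0.930 to 1.05). SMG9, which joins SMG8 to the kinase, had 953 reads in shPPIL1 cells and 860 in shControl cells, a log2 ratio of 0.12 (-0.01 to 0.26). The intervals of all 3 genes included equal expression. Added together, the reads of the 3 subunit genes had a ratio of 1.00 (0.975 to 1.03). Of these reads, 6871 of 10027 in shPPIL1 cells were from SMG1. The change in the pair ratio was 1.01 (0.943 to 1.08) for SMG1 to SMG8 and 0.916 (0.829 to 1.01) for SMG1 to SMG9. For SMG8 to SMG9 it was 0.907 (0.812 to 1.01), and all these intervals included 1.

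SMG1 is a long gene with partial copies. It lies on chromosome 16 from 18804853 to 18926454, and its principal transcript has 63 exons and 16115 bases. Of its 1602 windows of 100 bases, 11.1% were identical to sequence of another gene, chiefly the pseudogenes SMG1P1 to SMG1P7 and the NPIPB genes. The window that recurs in the most genes is shown because a read lying within it matches several genes. It was found unchanged in 9 other annotated genes, SMG1P1, SMG1P2, SMG1P3, SMG1P4, SMG1P5, SMG1P7, NPIPB3, NPIPB4 and NPIPB5. NPIPB3 overlaps SMG1P3 in position, NPIPB4 overlaps SMG1P4 and NPIPB5 overlaps SMG1P1, so the 9 names may stand for fewer separate copies.
SMG1 coding bases 3878 to 3977: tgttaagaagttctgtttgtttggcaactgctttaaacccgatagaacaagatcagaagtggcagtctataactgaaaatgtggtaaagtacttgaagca
The remaining windows were not shared unchanged, and copies with small differences were not sought. The SMG1 values, its pair ratios and the sum included, are uncertain for the same reason as those of UPF3A. SMG8 (chromosome 17, 59209400 to 59215247) and SMG9 (chromosome 19, 43727992 to 43754990) shared no window with another gene, and 12.1% of the SMG8 transcript lies in exons of an overlapping gene on the same strand.

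The other genes of the SMG1 kinase family and those of the TTT cochaperone that matures their products were also close to equal. ATM, ATR, MTOR, PRKDC and TRRAP had ratios between 0.930 and 0.982, and 2 of these 5, ATM and PRKDC, were lower by more than counting error, beside 26.4% of all kept genes. With the TTT subunit genes TELO2, TTI1 and TTI2, 0 of 8 genes passed 1.2-fold, beside 9.52% lower and 8.32% higher of all kept genes. All 8 ratios were below 1, with a median log2 ratio of -0.08, beside -0.002 for all kept genes. SMG1 had 10.3 FPKM in shPPIL1 cells and 10.2 FPKM in shControl cells. PRKDC, the most abundant of the other 5 family genes, had 36.4 FPKM in shPPIL1 cells and 37.8 FPKM in shControl cells.

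SMG5 and SMG6 act after UPF1 is phosphorylated. SMG5 is an adaptor that helps to bring in deadenylation and decapping enzymes, and SMG6 is the endonuclease that cuts the mRNA near the stop codon. SMG5 had 6210 reads in shPPIL1 cells and 7825 in shControl cells, which is 151 CPM in shPPIL1 cells and 191 CPM in shControl cells. Its ratio was 0.780 (0.754 to 0.806), a log2 ratio of -0.36 (-0.41 to -0.31), and 6.26% of kept genes had a lower ratio. In bulk RNA, less of an mRNA in every cell and fewer cells that carry it cannot be told apart. Calls of this kind were also made among deeply counted genes. Among 9076 kept genes whose reads summed to 1000 or more over the libraries, 7.38% were called lower at 1.2-fold and 5.01% higher. SMG6 had 566 reads in shPPIL1 cells and 512 in shControl cells, a ratio of 1.09 (0.962 to 1.23). SMG6 had the fewest reads of the members and the widest interval.

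SMG5 also differed relative to SMG6. The FPKM ratio of SMG5 to SMG6 was 10.1 in shPPIL1 cells and 14.1 in shControl cells, and the change in this ratio was 0.718 (0.633 to 0.814). The change lies beyond counting error and does not depend on the scaling of the libraries, whereas the FPKM ratios themselves rest on the deposited gene lengths. SMG5 lies on chromosome 1 from 156249224 to 156282825, shared 0 of 446 windows with another gene and overlapped no exon of another gene. SMG6, on chromosome 17 from 2059839 to 2303771, overlaps exons of HIC1 and SRR on the opposite strand over 31.0% of its transcript. The strand setting of the counting is not given in the sources used here, so SMG6 reads may include some of those genes.

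**Figure D3:**
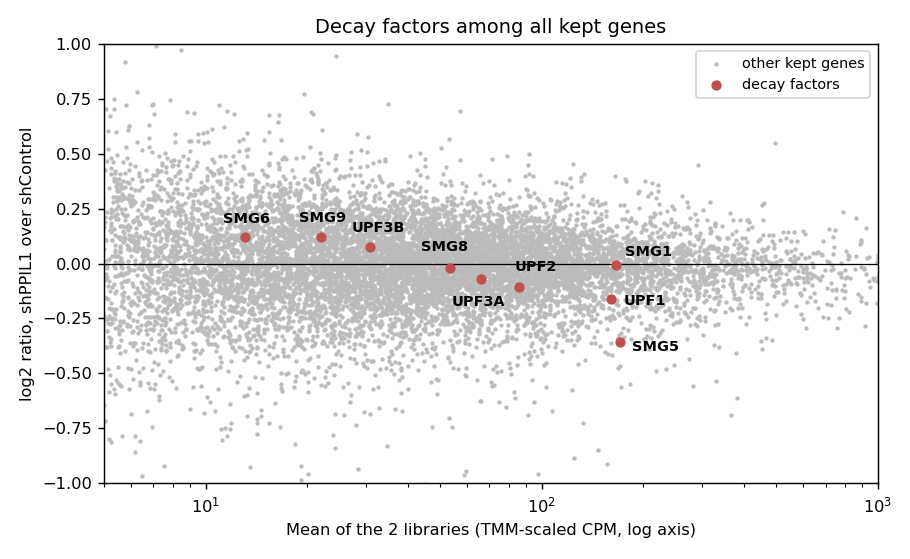
Log2 ratio of shPPIL1 over shControl against the mean scaled level of the 2 libraries (log axis), for the decay factors in red and other kept genes in grey. The window shows 10510 of the 12540 kept genes, those between 5 and 1000 CPM with a log2 ratio within 1. SMG5 lies at -0.36, and SMG1 and UPF1, at a like level, lie closer to 0.

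The 3 members with the fewest reads, SMG6, SMG9 and UPF3B, were the 3 with ratios above 1, and the 6 with more reads had ratios below 1, although SMG1 and SMG8 came to 1.01 and 1.00 when scaled by total counts alone. The part of depth in this was not tested, and all 3 ratios above 1 had intervals including 1. Among the 6 members whose own mRNAs are known decay targets, 3 were lower by more than counting error (SMG5, UPF1 and UPF2), 0 were higher, and 3 (UPF3B, SMG1 and SMG6) had intervals including 1. Of all kept genes 26.4% were lower and 24.6% higher by the same rule. Of the 3 others, UPF3A, SMG8 and SMG9, none differed by more than counting error. This grouping is from background knowledge and was made after the values were seen. The counts sum all transcripts of a gene, so levels of single isoforms with premature stops were not measured.

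The annotated transcripts of the members differ in the features that are known to attract the pathway. The 3' UTR was longer than 1000 bases in 6 of the 9 members, beside 52.3% of kept genes with a matched transcript, and ran from 237 bases in SMG8 to 4716 bases in SMG1. SMG5 had a 3' UTR of 1363 bases, the median of the members, and UPF1 one of 1719 bases. UPF2 stood out in its 5' UTR, with 13 ATG triplets upstream of the start codon, against at most 1 in each other member. More than 5 were found in 7.75% of kept genes. No member had an exon junction more than 50 bases downstream of its stop codon. Only 0.250% of kept genes had one in the coding transcript used, so this does not set the members apart. At least 1 further transcript annotated as a decay substrate was found in 3 of 9 (SMG1, SMG8 and SMG9), beside 43.2% of kept genes. SMG5, the member with the lowest ratio, had none.

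The 6-base motif GATCAT, which an earlier search of these same libraries had singled out in 3' UTRs, occurred in the 3' UTR of 3 members and of 24.7% of kept genes with a matched transcript. The motif was chosen on these data, so its presence is a description and no independent evidence. The sites are shown with the motif in capitals, because they fall in SMG5 and in 2 members whose intervals include equal expression.
SMG5, from base 1038 after the stop codon: tctgggagcagaGATCATgaatagctcagg
SMG1, from base 1567 after the stop codon: ccgaggcgggcgGATCATgaggttaggaga
SMG9, from base 1741 after the stop codon: tccaacatttaaGATCATcctcgaggccct
The numbers give the first base of the motif. The ratios of these 3 members were 0.780 for SMG5, 0.997 for SMG1 and 1.09 for SMG9, so members with a site included both the lowest and the highest ratio. UPF1 and UPF2, which were lower by more than counting error, had no site in either the coding sequence or the 3' UTR. Across all kept genes, the median log2 ratio was -0.03 for 3067 genes with a site and 0.01 for 9329 without.

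**Figure D4:**
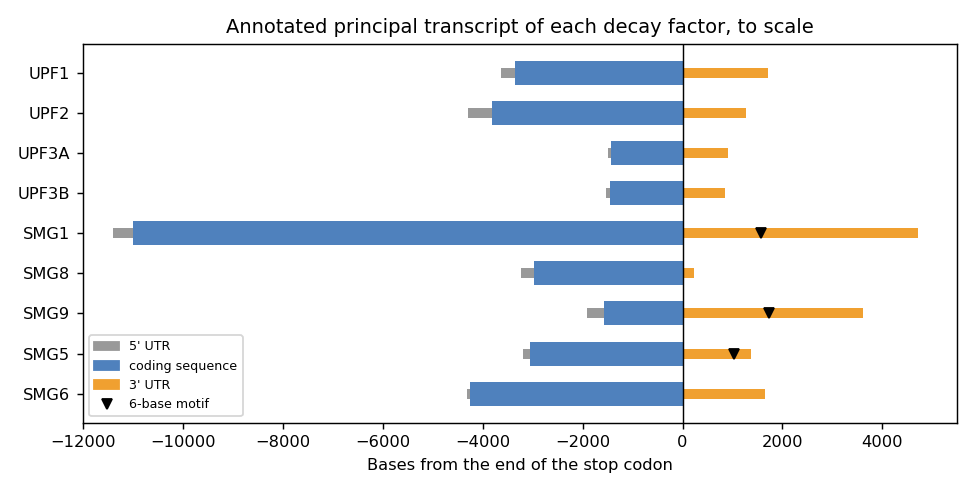
Principal annotated transcript of each decay factor, drawn to scale in bases and aligned at the end of the stop codon. Grey is the 5' UTR, blue the coding sequence, orange the 3' UTR, and triangles mark the 6-base motif. SMG1 has the longest coding sequence and 3' UTR, SMG8 the shortest 3' UTR, and the motif falls in the 3' UTRs of SMG1, SMG9 and SMG5.

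Among 9 kept genes of further decay factors, 4 were lower by the 1.2-fold rule and 0 higher, beside 9.52% lower and 8.32% higher of all kept genes, with a median log2 ratio of -0.09. The 4 were the translation release factor genes ETF1 (ratio 0.832, 0.810 to 0.855) and GSPT1 (0.811, 0.788 to 0.835) and the paired ATPase genes RUVBL1 (0.730, 0.699 to 0.762) and RUVBL2 (0.829, 0.796 to 0.863), whose products support SMG1 and related kinases. RUVBL1 had 3608 reads in shPPIL1 cells and 4859 in shControl cells, and GSPT1 had 8488 in shPPIL1 cells and 10285 in shControl cells. ETF1 and RUVBL2 lie close to 1.2-fold. ETF1 was not called under any of the 3 other scalings, and RUVBL2 was not called with total counts alone (ratios 0.844 for ETF1 and 0.840 for RUVBL2), which left 2 of 9. The release factor gene GSPT2 had 0 reads in both libraries and was not kept. The remaining 5 kept genes of that list had ratios between 0.939 and 1.11. The exon junction complex list had 0 of 7 genes past 1.2-fold and a median of -0.04.

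The enzymes that carry out the destruction showed single genes in either direction. In the list of decapping and 5' to 3' decay, 2 of 15 genes were higher and 0 lower, a share of higher genes near the 8.32% of all kept genes. They were DCP2, the decapping enzyme, with 3125 reads in shPPIL1 cells and 2383 in shControl cells (ratio 1.29, 1.22 to 1.36), and its cofactor gene DCP1B (log2 ratio 0.30, 0.14 to 0.47). Among 14 deadenylation genes, 1 was lower, CNOT7, a catalytic subunit of the CCR4-NOT complex (0.718, 0.694 to 0.743), with 5852 reads in shPPIL1 cells and 8004 in shControl cells. Of 16 exosome and Ski genes, 2 were lower, the exosome subunit genes EXOSC2 (0.715, 0.664 to 0.770) and EXOSC3 (0.768, 0.727 to 0.811), and 0 higher. The 9.52% of all kept genes that were lower is near the shares in both of those lists. The medians of these 3 lists, -0.04, -0.05 and -0.03, were close to that of all kept genes.

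Of 12 genes with transcripts known as substrates of the pathway, 2 were lower by the 1.2-fold rule and 0 higher, beside 9.52% lower and 8.32% higher of all kept genes. The median log2 ratio of the 12 was -0.17. ATF3, a stress-induced transcription factor gene, had 758 reads in shPPIL1 cells and 948 in shControl cells (ratio 0.786, 0.713 to 0.865), and UPP1, a uridine phosphorylase gene, had 684 in shPPIL1 cells and 853 in shControl cells (0.788, 0.711 to 0.872). The other 10 had ratios between 0.847 and 1.12, 8 of them below 1, and PISD, a phosphatidylserine decarboxylase gene, had the highest. By an interval excluding 1, 6 of the 12 were lower, beside 26.4% of kept genes, and 1, PISD, was higher, beside 24.6%. Several of these genes, ATF3, ATF4 and DDIT3 included, are also induced by the integrated stress response, so the list does not measure decay alone.

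**Figure D5:**
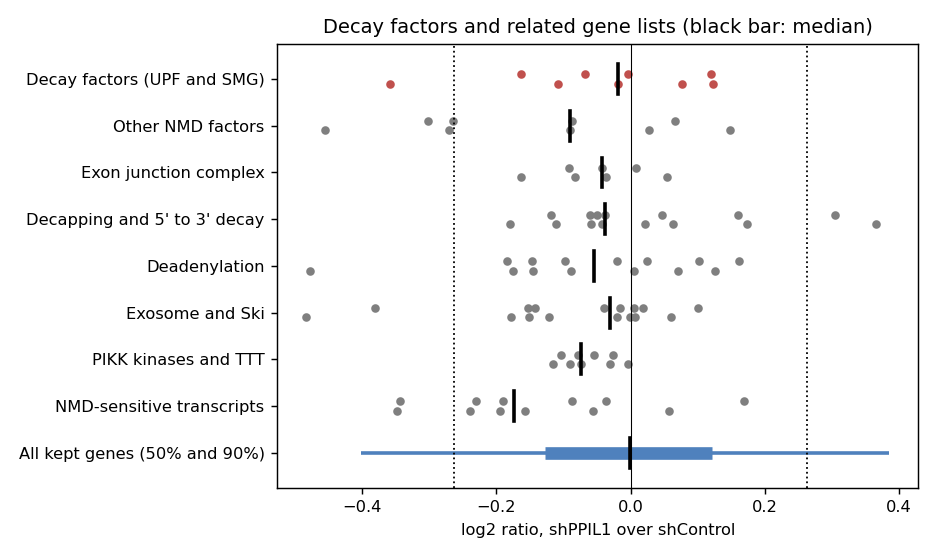
Log2 ratio of shPPIL1 over shControl for the decay factors and related gene lists. Each point is a kept gene, black bars are medians, dotted lines mark 1.2-fold, and the blue bar at the bottom gives the middle 50% and 90% of all kept genes. The medians run from -0.17 in the NMD-sensitive transcripts to -0.02 in the decay factors. SMG1 also appears among the PIKK kinases.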

How the data were processed

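Messenger RNA of Huh7 cells was measured in 1 shPPIL1 and 1 shControl library, grouped by their labels. The authors deposited raw counts per gene and FPKM values per gene; the build was hg38, per the submitters' processing notes. The sources used here do not name the aligner, the counter, the annotation or the strand setting. The deposited FPKM values implied a whole-number gene length (within 0.001 bases) for 99.9% of genes in each library. The count table held 7 further columns whose names match no label, which were not used.

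Counts were scaled with TMM factors (edgeR 4.0.16, R 4.3.3) of 1.01 for shPPIL1 and 0.993 for shControl. Ratios carry exact Clopper-Pearson 95% intervals, pair ratios exact conditional intervals (scipy 1.17.1) and FPKM levels exact Poisson intervals. Since PCR copies of a molecule could not be told apart, all intervals cover counting error only. No test and no p-value was possible with 1 library per group. Intervals and calls were tested on simulated counts with known changes, drawn with counting error only and scaled by total counts. That simulation checked whether raised genes were called higher, but not whether lowered genes were called lower. TMM scaling was not part of it.

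Transcripts, windows of 100 bases taken every 10 bases and overlaps came from GENCODE release 29 (GRCh38), using the principal transcript; 12396 kept genes had one. Named are the members, PPIL1, other PIKK genes, the markers used as checks, and up to 2 higher and 2 lower called genes per list. ETF1, RUVBL2, GSPT2, PISD, KDR, COL1A2 and list members named without values were named outside this rule after their values were seen. One planned item is not reported here. Members and lists were chosen with earlier results of these data known.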

Additional observations from a re-analysis of the deposited data

How the results depend on the processing

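All 9 member ratios recomputed with DESeq2 (1.42.0) size factors, total counts or upper quartile scaling stayed within the counting interval of the TMM ratio, and the deposited FPKM give the total-count ratios again, since length cancels. None with an interval excluding 1 changed direction. SMG5 was the 1 member called lower under the 3 other scalings, with no filter, at 5 CPM, without SMG1 and, chosen after seeing the data, without SMG1 and UPF3A. The count of lower members depended on the fold: it was 2 at 1.1-fold, 0 at 1.5-fold, 0 at 2-fold and 3 for an interval excluding 1 at any fold, while 0 members were higher under each of these. The median log2 ratio ran from -0.04 to 0.002 over its alternatives, which included leaving out SMG5 (-0.01). Of 81 kept genes of the other lists, substrates included, 9 were called lower, beside 9.52% of all kept genes, and 2 higher, beside 8.32%. Under the alternatives 7 to 9 were lower and 2 higher. Of the 69 among the 81 that are not substrates, 7 were lower, and 5 to 6 under the other scalings. With counts per kilobase of the principal transcript in place of the deposited FPKM, 4 of 9 members in shPPIL1 and 7 of 9 in shControl held their rank, because the gene lengths behind the FPKM differ from those of the transcripts (2943 against 5510 bases for SMG9). No paired analysis was possible because each group has 1 library. Depth limits SMG6 most, and for lack of replicates no spread between cultures is known.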
